A study of Mus musculus with 15 samples.

Results

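Nr4a1, Nr4a2, Nr4a3, Arc, Btg2, Npas4, Dusp1 and Ier2 are early response genes, transcribed within minutes of a stimulus from factors already present in the cell. They were chosen by symbol, and all 8 were found among the 15569 genes of the table. Striatum of C57Bl/6J mouse pups was sequenced at postnatal day 14, after the gestating dams had been exposed to aerosols. The 4 control libraries were labelled untreated, 3 libraries came after paraquat, 4 after titanium dioxide (TiO2) nanoparticles and 4 after a mix of both agents. All groups share the strain, the age and the tissue. The study asks whether prenatal exposure to these aerosols alters gene expression in the developing brain. The labels give no dose, exposure days, litter, dam, sex or batch, and do not say whether libraries came from separate animals. The p-values thus reflect the spread among these libraries alone, and that spread may be technical.

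In neurons, synaptic activity opens calcium channels and glutamate receptors, and the calcium activates kinases that phosphorylate CREB and, through the MAP kinase cascade, Elk1 with serum response factor. CREB binds the cAMP response element, and early response genes commonly carry this element or its shorter core near their start. The products are short-lived: some are transcription factors that switch on a later set of genes, some act at the synapse, and some shut the cascade down again. In striatum these genes are known to respond to dopamine and glutamate, and their levels in whole tissue can reflect the activity of the animal before dissection.

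The 3 Nr4a genes encode orphan nuclear receptors (also called Nur77, Nurr1 and Nor1), and Btg2 encodes an antiproliferative factor that recruits the mRNA deadenylase complex. On GRCm38, Nr4a1 lies at chr15:101254269-101274795 on the plus strand, Nr4a2 at chr2:57106830-57124003 on the minus strand, Nr4a3 at chr4:48045153-48086447 on the plus strand and Btg2 at chr1:134075170-134079120 on the minus strand. Each is protein coding and overlaps no other annotated gene. The 250 bases before their RefSeq starts (GRCm38.p6) are shown. Btg2 and Nr4a3 are the members that rose after 1 exposure in the limma tests below, and Nr4a1 and Nr4a2 belong to the receptor family of Nr4a3. Capitals mark the cAMP response element TGACGTCA or its core, TGACG or the reverse complement CGTCA. The windows lie at chr15:101266596-101266845 (plus) for Nr4a1, chr2:57124004-57124253 (minus) for Nr4a2, chr4:48045055-48045304 (plus) for Nr4a3 and chr1:134079156-134079405 (minus) for Btg2, each printed 5′ to 3′ on the gene's strand.
Nr4a1: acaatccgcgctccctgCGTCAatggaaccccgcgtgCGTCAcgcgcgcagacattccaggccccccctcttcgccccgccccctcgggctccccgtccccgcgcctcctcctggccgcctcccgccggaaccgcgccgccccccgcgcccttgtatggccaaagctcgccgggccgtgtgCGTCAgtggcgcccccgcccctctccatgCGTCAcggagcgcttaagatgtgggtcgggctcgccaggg
Nr4a2: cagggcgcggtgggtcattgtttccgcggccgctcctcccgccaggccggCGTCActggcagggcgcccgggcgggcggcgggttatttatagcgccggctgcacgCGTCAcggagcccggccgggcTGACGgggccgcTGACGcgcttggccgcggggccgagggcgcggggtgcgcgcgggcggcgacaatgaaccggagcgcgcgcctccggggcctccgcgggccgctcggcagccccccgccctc
Nr4a3: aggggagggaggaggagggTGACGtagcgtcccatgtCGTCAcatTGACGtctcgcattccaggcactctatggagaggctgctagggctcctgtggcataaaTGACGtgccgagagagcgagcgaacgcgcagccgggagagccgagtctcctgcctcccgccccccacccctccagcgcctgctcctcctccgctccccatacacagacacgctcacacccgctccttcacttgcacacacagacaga
Btg2: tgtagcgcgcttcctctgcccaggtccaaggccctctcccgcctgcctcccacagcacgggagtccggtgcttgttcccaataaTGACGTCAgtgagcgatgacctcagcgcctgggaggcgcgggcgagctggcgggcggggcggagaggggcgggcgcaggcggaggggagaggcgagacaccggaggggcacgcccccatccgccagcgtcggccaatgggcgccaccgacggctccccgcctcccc

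By the coordinates above, the Nr4a1 window lies inside the span given for the gene, and the Nr4a3 window runs into the start of its span. The windows of Nr4a1, Nr4a2 and Nr4a3 each hold 4 copies of the core, counted on both strands. At least 4 copies occur in 0.137% of the 32851 RefSeq windows of that length and in 0.370% of the 9178 windows with a GC content of 60% or more. Btg2 holds the full 8-letter element once, and the 2 cores counted there are the overlapping ends of that element. RefSeq windows were found for 6 of the 8 members, the others being Dusp1 and Npas4, and all 6 hold the core, against 17.8% of all windows and 27.1% of the GC-rich ones. The full element was found in 2 of 6 (Btg2 and Dusp1), against 1.55% of all windows. The serum response factor site (CArG box) and AAAGGTCA, the site bound by Nr4a monomers, were found in 0 of 6 on either strand, against 1.47% and 1.34% of all windows. A match is a description of these letters.

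The libraries held 8690925 to 14207513 reads, with paraquat library 3 the deepest and the next at 9804609. No member was at 0 in any library. Values are the authors' normalised read counts, in which 1 read is worth 0.658 to 1.08 units. Ier2 had 24 to 53 reads per library, Btg2 42 to 143 and Nr4a2 25 to 376, and the counting error of their lowest library was 20.4%, 15.4% and 20%. The Nr4a2 minimum is that of control 1. Nr4a1, with 469 to 1480 reads, was the deepest. All 12 markers of medium spiny neurons, the main neuron of striatum, were present in every library, and their summed value was 94887 to 104010 in control, 81510 to 90081 after paraquat, 87542 to 96957 after TiO2 and 81121 to 94498 after the mixture. Of 12 markers of cortical glutamatergic neurons, 11 were in the table and none was at 0 in any library; their sum was 2438 to 3760 in control, 3342 to 7113 after paraquat (7113 in library 2), 2997 to 4315 after TiO2 and 4284 to 6015 after the mixture. Fewer cells of a type and less RNA per cell cannot be told apart in such tissue.

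Per kilobase of exonic sequence, the control mean was highest for Nr4a1, at 195 normalised reads, followed by Arc at 136 and Npas4 at 107. Dusp1 followed at 65.1, and Nr4a3 (28.8), Nr4a2 (23.5), Ier2 (21.3) and Btg2 (20.3) were lowest. After the mixture the per-kilobase means of Nr4a2 and Nr4a3 were 78.5 and 53.1. Their order was thus Nr4a3 above Nr4a2 in control and Nr4a2 above Nr4a3 after the mixture, an exchange that was not tested.

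**Figure D1:**
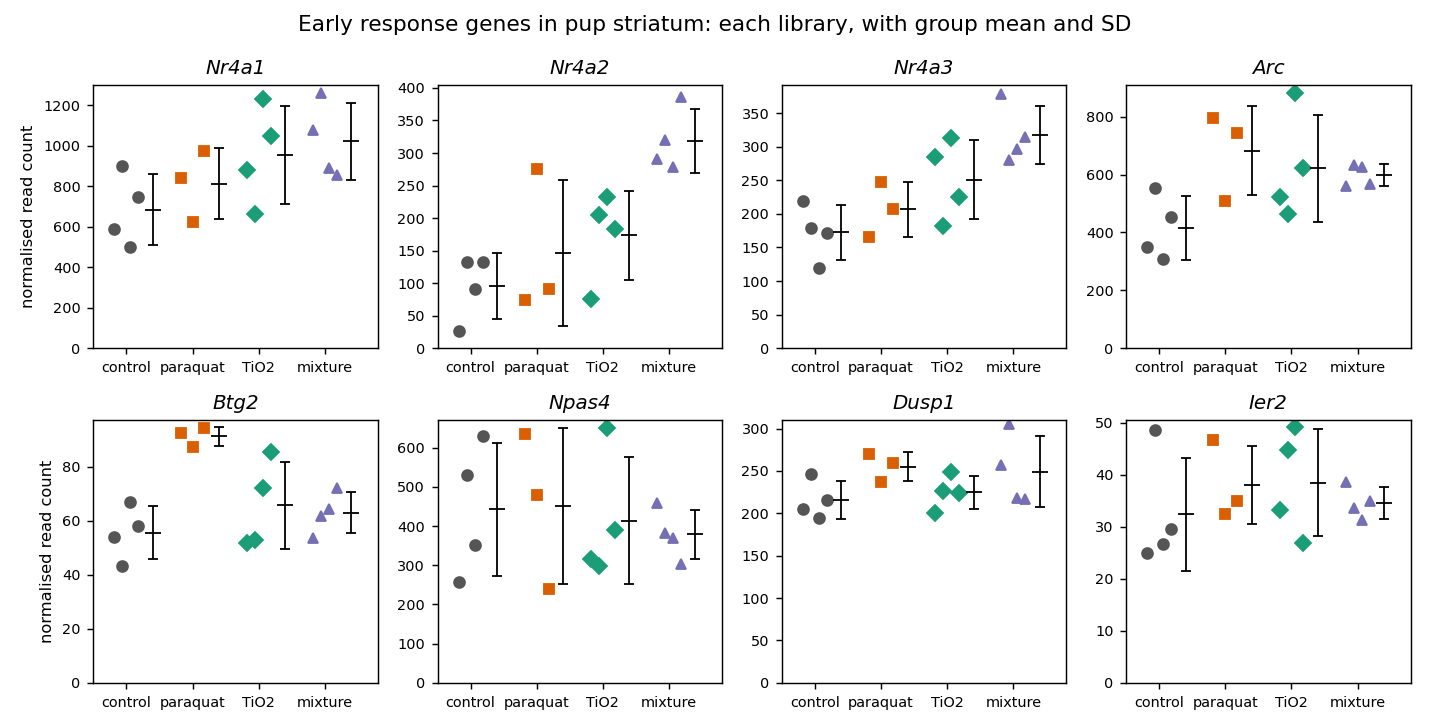
Normalised read count (vertical axis) of each of the 8 members in each of the 15 libraries, by group (horizontal axis), with the group mean and SD. The 4 mixture libraries of Nr4a2 and the 3 paraquat libraries of Btg2 lie above all libraries of the other groups.

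Differences from control were tested with limma on log2(value + 1) over 15556 genes, with Benjamini-Hochberg adjustment, and a gene was called at an adjusted p under 0.05. The 3 comparisons share the 4 control libraries and are not independent. After paraquat 1 of 8 members rose (Btg2), where 6.34% of all genes rose and 10.4% changed in either direction. After TiO2 0 of 8 members were called by limma, where 4.3% of all genes rose and 6.4% changed; 2 members had an unadjusted p under 0.05, and DESeq2 called 1. After the mixture 1 of 8 rose (Nr4a3), where 1.12% of all genes rose and 1.19% changed. Between exposures 0 members were called by limma for the mixture against paraquat (0.00643% of all genes), the mixture against TiO2 (0%) or TiO2 against paraquat (0%), with 2, 0 and 1 members at an unadjusted p under 0.05. Groups lay wholly above control for 1 member after paraquat (11% of all genes), 0 after TiO2 (7.51%) and 3 after the mixture (4.38%), namely Nr4a2, Nr4a3 and Arc. The estimated difference was above 0 for 8, 7 and 7 members after paraquat, TiO2 and the mixture, against 49.0%, 48.2% and 47.7% of all genes. The members' median log2 difference was 0.27, 0.37 and 0.38 in that order, and the median of all genes was -0.01 in each comparison.

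**Figure D2:**
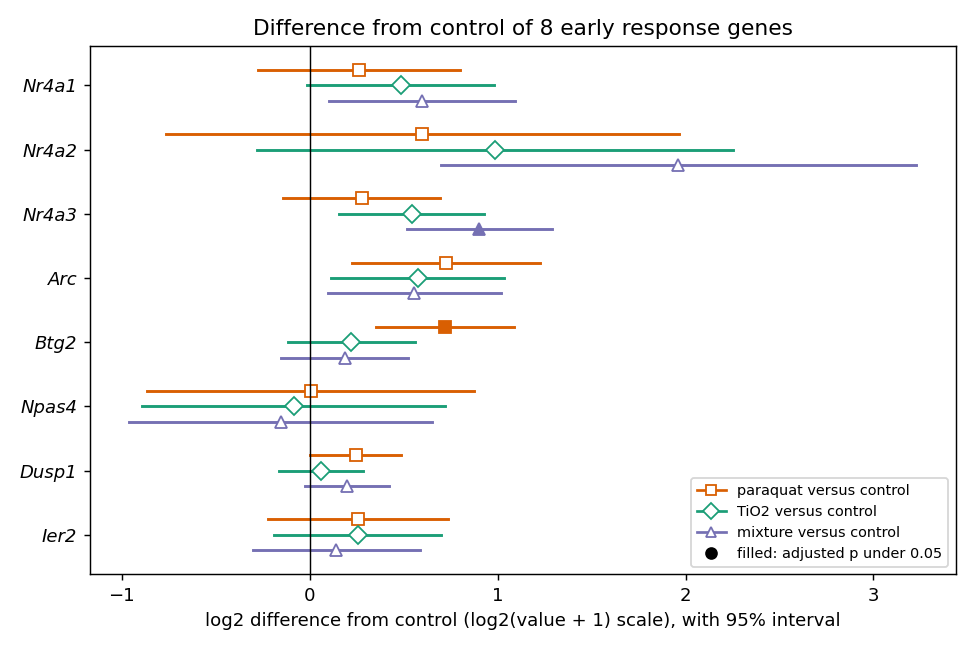
Log2 difference from control (points) with 95% confidence interval (lines) for each member after paraquat, TiO2 and the mixture, from limma. Filled points mark the calls, Btg2 after paraquat and Nr4a3 after the mixture; the intervals of Nr4a2 and Npas4 are the widest.

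Nr4a3, a receptor of the Nr4a family with a role in neuronal and metabolic responses, was highest after the mixture. Its normalised counts were 218.6, 179.6, 119.2 and 172.0 in control and 379.3, 281.0, 296.5 and 314.6 after the mixture. The 4 mixture libraries lie above all 4 controls, as they do for 4.38% of all genes. The mean rose from 172 ± 40.9 (SD, n = 4) to 318 ± 43.2 (SD, n = 4), a log2 difference of 0.90 ± 0.18 (SE; 95% confidence interval 0.52 to 1.29; limma, Benjamini-Hochberg adjusted p = 0.0237).

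After TiO2 the Nr4a3 values were 284.3, 182.0, 313.1 and 225.7, which overlap control because library 2 is low. The log2 difference was 0.54 ± 0.18 (limma adjusted p = 0.0853), and without TiO2 library 2 the adjusted p was 0.0349. After paraquat the values were 165.7, 247.6 and 208.1, within or near the control range, with a log2 difference of 0.28 ± 0.20 (adjusted p = 0.395). Neighbouring groups in the order mixture, TiO2, paraquat and control overlap. Mixture values lie above all paraquat values (0.63 ± 0.20, adjusted p = 0.212, not called), as for 7.17% of all genes. The test over all 4 groups called Nr4a3 (limma F test, adjusted p = 0.0253), as it did 6.78% of all genes. The mixture call was lost without control 2 (adjusted p = 0.0735), control 4 (0.0633), mixture 1 (0.0685), mixture 3 (0.0679) or mixture 4 (0.0530). The log2 difference in these fits was 0.93, 0.91, 0.81, 0.93 and 0.90 in that order. They called 101, 86, 80, 52 and 132 of all genes, where the full fit called 185. Correlation of Nr4a3 with the cortical marker score over the 15 libraries was r = 0.51, and 0.12 once group means were removed; with that score as a covariate the difference was 0.82 (adjusted p = 0.394).

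Nr4a2 (Nurr1) is best known as the factor that specifies and maintains midbrain dopamine neurons, and it is also expressed by deep-layer neurons of cortex and by the claustrum. Its normalised counts were 25.9, 133.1, 90.4 and 131.7 in control, against 290.1, 320.0, 277.8 and 386.6 after the mixture. The lowest mixture library stands just above the highest of the 11 other libraries, paraquat library 2 at 275.0, an order that 0.129% of all genes show. The group means were 95.3 ± 50.3 (SD, n = 4) and 319 ± 48.7 (SD, n = 4), and control library 1 is below the other controls. The log2 difference was 1.96 ± 0.58 (95% confidence interval 0.70 to 3.23), which did not pass the test over all genes (limma, adjusted p = 0.165), while DESeq2 called it (adjusted p = 0.0445). Without control 1 the log2 difference was 1.43 (adjusted p = 0.307), and that of TiO2, given next, was 0.45 (adjusted p = 0.661).

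Nr4a2 was spread widely within the other exposures. After TiO2 it was 75.7, 204.4, 231.8 and 183.0, with 3 libraries above all controls and library 1 among them (log2 difference 0.99 ± 0.58, adjusted p = 0.333). After paraquat it was 73.4, 275.0 and 90.2, so library 2 alone exceeds control (0.60 ± 0.62, adjusted p = 0.588). Mixture values lie above all 3 paraquat values (1.36 ± 0.62, adjusted p = 0.349) and all 4 TiO2 values (0.98 ± 0.58, adjusted p = 0.532), as for 7.17% and 3.28% of all genes, and neither difference was called.

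Genes most like Nr4a2 across the 15 libraries included Ntng2 (r = 0.93) and Cbln1 (0.91). With group means removed they included Neurod2 (0.91) and Tbr1 (0.90), which are transcription factors of cortical excitatory neurons and belong to the cortical marker list used here. The summed cortical score correlated with Nr4a2 at r = 0.87 over the 15 libraries and at 0.89 with group means removed; the points share library preparation and normalisation. Slc17a7, the vesicular glutamate transporter of cortical neurons, was 203.0 in control 1, where Nr4a2 was lowest, and 2703.2 in paraquat 2, where Nr4a2 was the highest of its group. Not every marker of the cortical list ran this way. Lamp5, the marker with the highest mean level, was lowest in paraquat 2 (1297.8) and highest in control 2 (2031.0). Rorb was 204.3 to 251.6 in control and 198.0 to 207.0 after the mixture. With the cortical score as a covariate, a choice made after seeing the data, the mixture difference was 0.32 (adjusted p = 0.908) and the paraquat difference was -0.62 (adjusted p = 0.288). The score itself differs between groups, so exposure and cortical RNA cannot be told apart for Nr4a2. Without paraquat 2, mixture 1 and mixture 4, the libraries highest in Slc17a7, the mixture difference was 1.88 (adjusted p = 0.348).

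**Figure D3:**
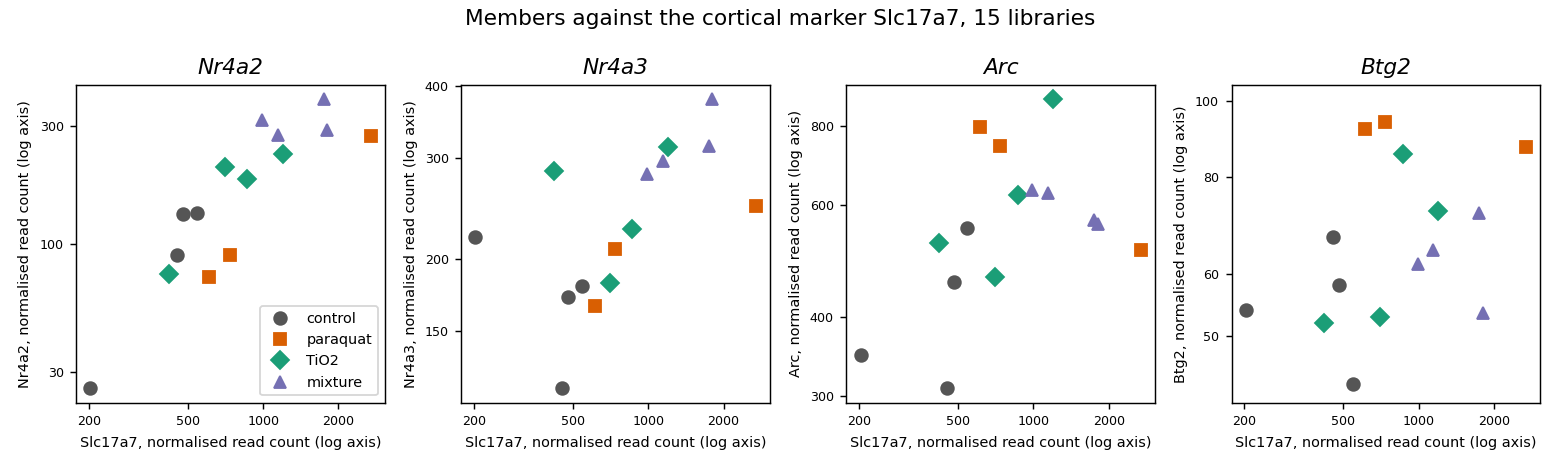
Nr4a2, Nr4a3, Arc and Btg2 (normalised read count, vertical log axes) against the cortical marker Slc17a7 (horizontal log axis), 1 point per library. Nr4a2 is lowest in the library with the least Slc17a7 (25.9 at 203.0). Btg2 is high in all 3 paraquat libraries, whose Slc17a7 of 609.3 to 2703.2 lies above that of every control (203.0 to 543.9).

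Nr4a1 (Nur77), which represses or activates metabolic and synaptic genes and is strongly induced by loss of dopamine signalling in striatum, was not called in any comparison. It was 589.5, 897.9, 499.0 and 746.1 in control and 1077.4, 1262.7, 890.6 and 854.5 after the mixture, groups that overlap only because control 2 exceeds 2 mixture libraries. The log2 difference was 0.60 ± 0.23 (limma adjusted p = 0.292), beside 0.48 ± 0.23 after TiO2 (adjusted p = 0.228) and 0.26 ± 0.25 after paraquat (adjusted p = 0.542). The group means ran from 683 ± 176 (SD, n = 4) in control through 813 ± 178 (n = 3) after paraquat and 956 ± 243 (n = 4) after TiO2 to 1021 ± 188 (n = 4) after the mixture, and no neighbours in that order differ beyond their spread. Nr4a1 and Nr4a3 correlated at r = 0.64 over the 15 libraries and 0.32 with group means removed; Nr4a2 and Nr4a3 at 0.52 and -0.11.

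Btg2 was the member that rose after paraquat. Its normalised counts were 53.9, 43.3, 67.0 and 58.0 in control and 92.3, 87.3 and 94.2 after paraquat. All 3 paraquat libraries lie above every other library of the study, the next being TiO2 library 4 at 85.5, which holds for 0.662% of all genes. Against control alone, groups that do not overlap in this direction occur for 11% of all genes. The mean rose from 55.6 ± 9.82 (SD, n = 4) to 91.2 ± 3.57 (SD, n = 3), a log2 difference of 0.72 ± 0.18 (SE; limma, adjusted p = 0.0130), with the control 3 value of 67.0 as the nearest. Without paraquat 3 the adjusted p was 0.0514, and with the cortical score as a covariate the difference was 0.63 (adjusted p = 0.101).

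After TiO2 Btg2 was 51.9, 52.9, 72.3 and 85.5, and after the mixture 53.5, 61.8, 64.5 and 72.0, both overlapping control. The differences were 0.22 ± 0.16 (adjusted p = 0.442) and 0.19 ± 0.16 (adjusted p = 0.713). Mixture values lie below all paraquat values (-0.54 ± 0.18, adjusted p = 0.213), as for 6.61% of all genes, and so do TiO2 values (-0.50 ± 0.18, adjusted p = 0.658), as for 2.94%; neither was called. The log2 effect of TiO2 on Btg2 was 0.22 against control and -0.54 when paraquat was present, so the departure from additive effects was -0.76 ± 0.24 (limma, adjusted p = 0.0432). It was the only member called by that test, which called 11.8% of all genes and 6.36% in this direction. This call was lost without any 1 of control 1, 2 or 4, paraquat 1 or 3, TiO2 3 or 4, or mixture 1, 2 or 3, with adjusted p of 0.0503 to 0.0898.

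The summed markers of oligodendrocytes also stood higher after paraquat, at 82762 to 95964 against 37546 to 56216 in control, 51707 to 81394 after TiO2 and 44801 to 77881 after the mixture. Btg2 correlated with that sum at r = 0.41 over the 15 libraries and at -0.33 with group means removed. With the astrocyte sum the values were 0.68 and 0.35, and with the medium spiny neuron sum, which was lower after paraquat than in any control, -0.65 and -0.37. The part of these cells in the Btg2 difference was not tested. The genes most like Btg2 over the libraries were Ypel4 (r = 0.86), Grik4 (0.86), a kainate receptor subunit, and Unc5d (0.83), a netrin receptor.

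Arc encodes a capsid-like protein that drives endocytosis of AMPA receptors at active synapses. It lies at chr15:74669083-74672570 on the minus strand. Its normalised counts were 348.1, 552.1, 308.5 and 454.1 in control and 795.9, 509.4 and 743.4 after paraquat. Only paraquat library 2 falls within the control range. The mean was 416 ± 110 (SD, n = 4) and 683 ± 153 (SD, n = 3), and the log2 difference of 0.73 ± 0.23 (95% confidence interval 0.23 to 1.22) did not pass the limma test (adjusted p = 0.0623). It passed without control 2 (adjusted p = 0.0292), paraquat 2 (0.0276), TiO2 2 (0.0464) or TiO2 3 (0.0264), and by DESeq2 (0.0374).

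After the mixture Arc was 560.5, 633.5, 627.4 and 568.6, a narrow group just above the highest control. Its mean was 597 ± 38.3 (SD, n = 4) and its log2 difference 0.56 ± 0.21 (adjusted p = 0.290). After TiO2 it was 522.9, 462.6, 881.1 and 622.5, with library 3 the highest of the study and 2 libraries inside the control range (0.57 ± 0.21, adjusted p = 0.127). Averaged over the 3 exposures, Arc rose by 0.62 ± 0.18 (limma, adjusted p = 0.0441) and Nr4a3 by 0.57 ± 0.15 (adjusted p = 0.0242), so 2 of 8 members were called where 6.52% of all genes rose and 9.66% changed. Leaving out 1 library moved Arc between 0.49 and 0.77 and Nr4a3 between 0.41 and 0.70, and the Arc call was lost without any 1 of control 1, 3 or 4, paraquat 1 or 3, TiO2 4 or the 4 mixture libraries (adjusted p from 0.0563 to 0.147). The Nr4a3 call was lost without control 2, control 3 (adjusted p = 0.0791) or control 4 (0.0658).

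Arc varied together with Nr4a1 within groups. Their correlation was r = 0.82 over the 15 libraries and 0.88 with group means removed. Arc and Dusp1 followed at 0.67 and 0.61. Arc also correlated with the oligodendrocyte sum, at 0.71 and 0.54, and these points share libraries and normalisation. Apart from members, the genes most like Arc were Pfkl (r = 0.89), a phosphofructokinase, Tepsin (0.86) and Gm4221 (0.86), and those most like Nr4a1 were Fosl2 (0.86), Asphd1 (0.83) and Egr4 (0.83), of which Fosl2 and Egr4 are themselves early response transcription factors.

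Npas4, a factor induced by calcium in neurons and involved in forming inhibitory synapses, lies at chr19:4984355-4990316 on the minus strand. Its normalised counts were 256.9, 531.5, 351.1 and 631.1 in control, 636.1, 478.9 and 240.3 after paraquat, 315.4, 298.9, 649.3 and 389.8 after TiO2, and 459.5, 381.8, 369.4 and 304.4 after the mixture. Each group overlaps all others, and the control range is nearly as wide as that of the whole study. The log2 differences were 0.00 ± 0.40 (95% confidence interval -0.87 to 0.88; limma adjusted p = 0.996), -0.09 ± 0.37 (-0.89 to 0.72; 0.919) and -0.15 ± 0.37 (-0.96 to 0.65; 0.918) after paraquat, TiO2 and the mixture. The paraquat interval reaches nearly to a doubling in either direction. The genes most like it were Pnmt (r = 0.86), Phrf1 (0.83) and Mafg (0.81).

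Dusp1, a nuclear phosphatase that switches off MAP kinases, was not called. It was 205.1, 246.7, 194.7 and 216.3 in control and 269.9, 236.4 and 258.8 after paraquat, with 1 paraquat library inside the control range. The log2 difference was 0.24 ± 0.12 (limma adjusted p = 0.188), beside 0.06 ± 0.11 after TiO2 (200.3 to 248.9; adjusted p = 0.787) and 0.20 ± 0.11 after the mixture (217.0 to 304.8; adjusted p = 0.492). In GENCODE M21 the Dusp1 model (chr17:26505590-26562128, minus strand) overlaps Ergic1 on the other strand, while the RefSeq models of both genes do not overlap. The use of strand in counting is not given in the sources used here, so reads of the shared stretch cannot be told apart. The genes most like Dusp1 over the 15 libraries were Ccn1 (r = 0.87), Csrnp1 (0.87) and Junb (0.81), all early response genes.

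Ier2, a small nuclear protein and the shallowest member, lies at chr8:84661331-84662852 on the minus strand. It ranged from 24.9 to 48.5 in control, 32.5 to 46.6 after paraquat, 26.9 to 49.2 after TiO2 and 31.2 to 38.6 after the mixture. All groups overlap, with differences of 0.26 ± 0.23, 0.26 ± 0.22 and 0.14 ± 0.22 and limma adjusted p of 0.512, 0.509 and 0.862. Its nearest genes were Wbp1l (r = 0.89), Selenoo (0.88) and Fbxo31 (0.87).

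Other genes of the pathway were read from lists that leave out the members. Of 10 tested Fos, Jun and Egr factors (11 listed), 2 rose after paraquat, 5 after TiO2 and 2 after the mixture, and 0 fell, where 6.34%, 4.3% and 1.12% of all genes rose. The median log2 difference was 0.30, 0.57 and 0.49, against -0.01 for all genes. Fos, a partner of Jun in AP-1, rose after each exposure. Its counts were 23.8, 27.9, 20.2 and 31.5 in control, 41.7, 45.7 and 63.9 after paraquat, 34.2, 35.6, 52.2 and 62.7 after TiO2, and 64.4, 72.7, 57.2 and 37.0 after the mixture, so every exposed library exceeds every control. Taken singly, these exposures lay wholly above control for 11%, 7.51% and 4.38% of all genes. The share for all 3 together was not counted. The log2 differences of Fos were 0.93 ± 0.24 (limma adjusted p = 0.0163), 0.79 ± 0.22 (0.0324) and 1.11 ± 0.22 (0.0118). Fos was not called after paraquat without paraquat 3, after TiO2 without control 1, control 3, TiO2 3 or TiO2 4, or after the mixture without mixture 1 or 2. With the cortical score as a covariate its differences were 0.92, 0.78 and 1.10, and none was called (adjusted p = 0.0795, 0.0577 and 0.263). DESeq2 and voom did not call Fos after TiO2.

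Egr1, a zinc finger factor of synaptic plasticity, rose after TiO2 by 0.88 ± 0.16 (limma adjusted p = 0.00569), and no single library decided that call (highest adjusted p = 0.0349). Fosl2 rose after TiO2 (0.49 ± 0.12, adjusted p = 0.0160, lost without control 1 or TiO2 3) and after the mixture (0.63 ± 0.12, adjusted p = 0.00869, lost with the cortical covariate, adjusted p = 0.319, and without the 3 libraries highest in Slc17a7). Egr2 (0.68 ± 0.19, adjusted p = 0.0281) and Egr4 (0.65 ± 0.18, adjusted p = 0.0456) rose after TiO2, and Jund after paraquat (0.43 ± 0.11, adjusted p = 0.0137). Egr2 was lost without control 1, control 3, TiO2 1 or TiO2 3, Jund without paraquat 3, and Egr4 without any 1 of 10 libraries, namely the 4 controls, paraquat 1, TiO2 1, 3 and 4, and mixture 2 and 3.

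Of 25 other early response genes tested (28 listed), 3 rose and 1 fell after paraquat, 2 rose after TiO2 and 1 after the mixture. Of all genes, 6.34% rose and 4.06% fell after paraquat, 4.3% rose and 2.1% fell after TiO2, and 1.12% rose after the mixture. The list's counts are small and were not tested against these shares. Rgs2, which dampens G protein signalling, fell by 0.67 ± 0.11 after paraquat (limma adjusted p = 0.000598). The circadian repressor Per1 rose after TiO2 (0.61 ± 0.11, adjusted p = 0.00248) and, with 4 libraries each able to end the call (control 1 and 3, paraquat 1 and 3), after paraquat (0.46 ± 0.12, adjusted p = 0.0212). Plk3, a stress-responsive kinase, rose after paraquat (0.64 ± 0.15, adjusted p = 0.00877, lost without paraquat 3). The small GTPase Arl4d rose after paraquat (0.48 ± 0.13, adjusted p = 0.0238, lost without control 1 or paraquat 1) and TiO2 (0.47 ± 0.12, adjusted p = 0.0212, lost without control 1 or TiO2 3). Trib1, a pseudokinase, rose after the mixture (0.50 ± 0.12, adjusted p = 0.0353), a call lost without control 1, 3 or 4 or any mixture library. Of 11 MAP kinase phosphatases and feedback inhibitors, Dusp5 rose after TiO2 (0.59 ± 0.14, adjusted p = 0.0110), and 0 were called by limma after paraquat or the mixture.

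Among 13 late response genes tested (14 listed), which neurons switch on after the early factors, 5 rose and 1 fell after paraquat, 2 rose after TiO2 and 2 after the mixture, beside shares of all genes of 6.34% and 4.06%, 4.3% and 1.12%. The neuropeptide genes Cartpt (1.43 ± 0.26, limma adjusted p = 0.00163) and Crh (0.96 ± 0.22, adjusted p = 0.00877, lost without paraquat 3) rose after paraquat. The cell cycle inhibitor gene Cdkn1a rose after paraquat (0.41 ± 0.13, adjusted p = 0.0434) and TiO2 (0.50 ± 0.12, adjusted p = 0.0121), as did the secreted neuropeptide precursor gene Vgf (0.35 ± 0.11, adjusted p = 0.0443, and 0.40 ± 0.10, adjusted p = 0.0183). Pcsk1, a protease that matures prohormones, fell after paraquat by 0.40 ± 0.13 (adjusted p = 0.0446). After paraquat the call of Cdkn1a was lost without any 1 control, any 1 paraquat library, TiO2 1, mixture 1 or mixture 2, that of Vgf without any 1 control, paraquat 1 or 3, TiO2 1 or 2 or mixture 3, and that of Pcsk1 without control 1 or 4, paraquat 1 or 3, TiO2 1 or 2 or mixture 1. After TiO2 the call of Cdkn1a was lost without TiO2 3, and that of Vgf without control 1, TiO2 2 or TiO2 3. The remaining paraquat call, Nrn1 (1.74 ± 0.50, adjusted p = 0.0453), falls outside the naming rule, was named after its values were seen and is also one of the cortical markers. Its counts after paraquat were 46.6, 241.5 and 69.1, and without paraquat 2 the difference was 1.05 (adjusted p = 0.0524); the call was also lost without any 1 control, paraquat 3, TiO2 2 or 4 or any 1 mixture library. Bdnf, a neurotrophin made in cortical neurons and carried to striatum, was 10.4, 23.7, 21.3 and 19.7 in control and 41.6, 30.4, 42.7 and 50.4 after the mixture. The Bdnf mixture values lie above all controls, as for 4.38% of all genes, with a difference of 1.13 ± 0.28 (limma adjusted p = 0.0438). With the cortical score as a covariate the Bdnf difference was 0.16 (adjusted p = 0.958). Nptx2, a pentraxin that clusters AMPA receptors, rose after the mixture by 0.49 ± 0.12 (adjusted p = 0.0486). The call of Bdnf was lost without any 1 of control 1, 3 or 4, TiO2 2 or 4 or the 4 mixture libraries, and that of Nptx2 without any 1 of control 1, 3 or 4, TiO2 1, 2 or 4 or mixture 1, 2 or 3.

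Of 27 kinases and factors upstream of early response genes, 5 rose and 4 fell after paraquat, 5 rose after TiO2 and 1 after the mixture, again beside 6.34% and 4.06%, 4.3% and 1.12% of all genes. Camk4, a nuclear calcium kinase that activates CREB, rose after each exposure, by 0.85 ± 0.14 (limma adjusted p = 0.00147), 1.01 ± 0.13 (0.000128) and 0.85 ± 0.13 (0.00257). Its counts were 543.9 to 902.3 in control, 1081 to 1322 after paraquat, 1302 to 1452 after TiO2 and 1039 to 1506 after the mixture, with no overlap with control. Taken singly, these exposures lay wholly above control for 11%, 7.51% and 4.38% of all genes. Elk1, a target of MAP kinases, rose after paraquat (0.50 ± 0.09, adjusted p = 0.00161) and TiO2 (0.39 ± 0.08, adjusted p = 0.0079). Neither the Camk4 nor the Elk1 calls were lost by leaving out any 1 library. The catalytic subunits of calcineurin, Ppp3ca (-0.38 ± 0.09, adjusted p = 0.0106), and of protein kinase A, Prkacb (-0.27 ± 0.07, adjusted p = 0.0146), fell after paraquat, each lost without paraquat 1. The MAP kinase gene Mapk3 rose after paraquat (0.32 ± 0.08, adjusted p = 0.0183, lost without control 1, paraquat 1 or paraquat 3) and TiO2 (0.29 ± 0.08, adjusted p = 0.0235, lost without control 1, control 4, TiO2 2 or TiO2 3). Crtc3, a coactivator of CREB, rose after TiO2 (0.39 ± 0.10, adjusted p = 0.0226, lost without control 1, control 3 or TiO2 3), and so did the activity-regulated factor gene Mef2d (0.28 ± 0.08, adjusted p = 0.0389, lost without control 1, 3 or 4 or TiO2 1, 2 or 3). Of 17 partners and relatives of the members, 1 fell, Cnot7 after TiO2 (-0.32 ± 0.10, adjusted p = 0.0470), a deadenylase subunit to which Btg proteins bind; the call was lost without any 1 of 11 libraries, namely control 1, 3 and 4, paraquat 1, TiO2 1, 2 and 3 and the 4 mixture libraries. Of the list calls within the naming rule, those that held without any 1 library numbered 4 of 16 after paraquat, 5 of 16 after TiO2 and 2 of 6 after the mixture. With the cortical score as a covariate, 6 of 16, 11 of 16 and 1 of 6 (Camk4) kept their call. Removing a GC trend lost the paraquat calls of Jund, Per1, Arl4d, Cdkn1a, Vgf, Pcsk1 and Mapk3. It also lost the TiO2 calls of Egr4, Vgf, Crtc3, Mapk3, Mef2d and Cnot7, while the mixture calls were kept.

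**Figure D4:**
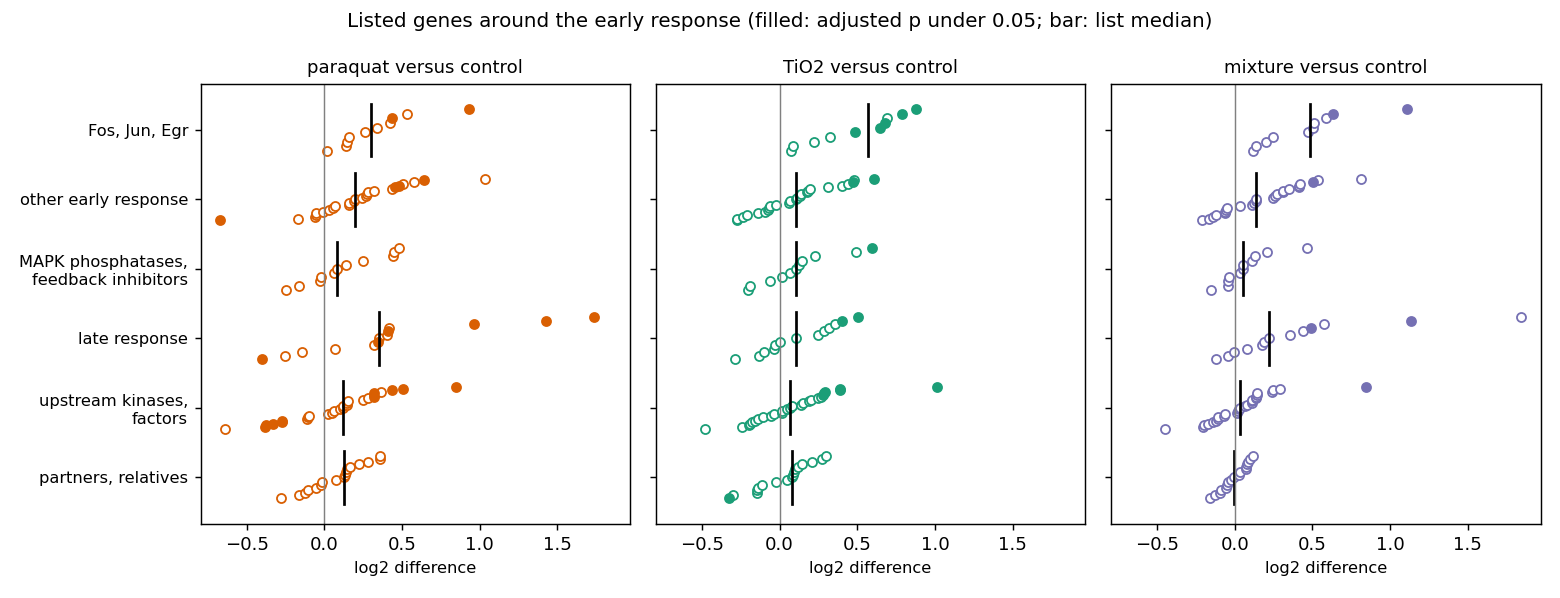
Log2 difference from control of each tested gene of the 6 pathway lists (points) after paraquat, TiO2 and the mixture, with calls filled. Of the Fos, Jun and Egr factors, 2, 5 and 2 of 10 were called, all higher than control.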

How the data were processed

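The authors deposited a table of 15569 genes in 15 libraries whose values are a normalised signal, read counts scaled by 1 factor per library. Striatal RNA from NucleoSpin RNA II columns went into Lexogen SENSE total RNA libraries, read on a NextSeq500, per the labels' protocols. Per the submitters' processing notes, Bowtie2 2.3.2.2, DESeq2 2.1.8.3 and mm10 were used. Not given in the sources used here: the read counter, annotation, use of strand and gene filter. From the steps between low values, 100% of values came out as whole reads within 0.001; the step is close to 1 in paraquat 1, mixture 1 and TiO2 3 and 4, and recovery is claimed only for the other 11.

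Genes were tested on log2(value + 1) with limma 3.58.1 (R 4.3.3; trend and robust settings) over all 15 libraries with group as the only term; a filter on low values left 15556 genes, all 8 members among them. The pseudocount of 1 makes differences of low genes smaller. Alternatives were edgeR 4.0.16 and DESeq2 1.42.0 on recovered reads, a pseudocount of 5, no filter, TMM factors, voom weights, only the groups compared, a replicate block, removal of a GC trend and leaving out each library. A cortical marker covariate and the omission of 3 libraries were added after seeing the data. Scripts were tested on simulated data. Gene models are GENCODE M21 (GRCm38), promoters RefSeq.

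Members, gene lists and tests were chosen with earlier results of these data known. All members were named; likeness gives the 3 genes outside the members with the highest Pearson correlation, of which 1 is not reported here. Of each list every called gene was eligible where there were up to 5 per comparison, otherwise the 5 with the smallest p. Correlations across libraries are descriptions and carry no test. Whether same-numbered libraries share an origin was checked: the correlations of their deviations from group means were -0.186 to 0.271 in 21 pairs, so the numbers were not taken as pairing. The 95% intervals come from the spread among libraries; the counting errors given with the read numbers cover counting only, since reads lacking molecular identifiers need not be separate molecules.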

Additional observations from a re-analysis of the deposited data

Results flagged for a closer look

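The departure of Btg2 from additive effects was singled out because the effect of TiO2 differed with and without paraquat by a test of the difference itself. The interaction was -0.76 on the log2 scale (limma, Benjamini-Hochberg adjusted p = 0.0432), and over the alternatives run the adjusted p lay between 0.0153 and 0.114. That test called 1 of 8 members and 11.8% of all genes, and the Btg2 call held in 5 of 15 fits that left out 1 library. All 3 paraquat libraries (87.3 to 94.2) exceeded all 4 mixture libraries (53.5 to 72.0), as for 6.61% of all genes. In each group of 4, the gap from the highest or lowest library to its neighbour was divided by the group's range and compared with Dixon's critical value for 95%. None of the 24 groups of member values passed it; for Nr4a2 in control 1 the gap of 64.5 was 0.602 of the range of 107.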

How the results depend on the processing

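By limma, 1 member was called after paraquat, 0 after TiO2, 1 after the mixture, 1 for non-additivity, 2 for the mean of exposures and 1 for the difference among groups. Leaving out 1 library gave 0 to 2, 0 to 1, 0 to 1, 0 to 1, 0 to 2 and 0 to 2. Of the 15545 to 15569 genes tested, those fits called 665 to 2017, 467 to 1397, 52 to 261, 883 to 2313, 657 to 1777 and 426 to 1266 in that order. The 3 comparisons between exposures stayed at 0 members called under every alternative run. Over all genes, DESeq2 called 125 of 8921 for the mixture against paraquat and 54 of 8318 for the mixture against TiO2. For TiO2 against paraquat it called 9 of 14650. Against control, DESeq2 called 2, 1 and 2 members after paraquat, TiO2 and the mixture, beside 1936 of 14047, 1199 of 11634 and 302 of 13745 genes tested. edgeR and voom each called 1 for the mean of exposures (Arc lost), beside 1526 and 1506 of 15556 genes. Each called 2 among groups, beside 1115 and 1083 genes. Removing the GC trend left 0 for non-additivity and 1 for the mean of exposures, beside 1124 and 1371 of 15556 genes. The cortical covariate left 0 in all of these. Over all genes it cut the calls from 1617 to 472 after paraquat, 996 to 794 after TiO2 and 185 to 24 after the mixture. For non-additivity, the mean of exposures and the difference among groups, the cuts were 1832 to 1691, 1503 to 371 and 1055 to 579. Without the 3 libraries highest in Slc17a7, 2 were called after paraquat, 0 after the mixture, 0 for non-additivity, 1 for the mean of exposures and 0 among groups. The calls over 15569 genes were 1385, 81, 797, 1587 and 850 in that order.

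The labels do not say whether the numbers used in the replicate block pair the samples. With this block, limma called 1 member after paraquat (Btg2) and 0 after TiO2. After the mixture it called 1 (Nr4a2, adjusted p = 0.0474, in place of Nr4a3, 0.0530). It called 1 for non-additivity, 2 for the mean of exposures (Btg2 and Nr4a2) and 1 among groups (Btg2). Over 15556 genes it called 1482, 1354, 290, 1768, 1682 and 1215 in that order.

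Of 1004 alternative values of single members, 929 kept their direction and side of the threshold and 19 reversed, none of them a called result. Npas4 after paraquat became -0.036 with voom, -0.12 with the GC trend removed, -0.35 with the covariate and -0.093 without the 3 libraries. Leaving out 1 library moved Npas4 from -0.30 to 0.40 after paraquat, -0.33 to 0.11 after TiO2, -0.39 to 0.045 after the mixture and -0.31 to 0.12 for the mean. Nr4a2 became -0.62 after paraquat and -0.073 for mixture against TiO2 with the covariate, and Dusp1 after TiO2 became -0.0078 with the GC trend removed. The causes were not tested. Read numbers were low for Ier2 (24 to 53 per library) and Btg2 (42 to 143), and for Nr4a2 in control 1 (25). The part of depth in these results was not tested.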
